A study of Saccharomyces cerevisiae with 4 samples.

Results

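The data describe how the transcript response to hydrogen peroxide differed between wild type yeast and yeast lacking *SOD1*. For each gene the response, the log2 signal after H2O2 minus the log2 signal untreated, was taken in both strains, and the wild type response was subtracted from the sod1Δ response. The result is called the response difference here. A negative value means a smaller rise or a larger fall in sod1Δ. Of the 5449 *Saccharomyces cerevisiae* genes measured, 5065 had a log2 signal above 6 on at least 1 array and were kept, and 384 were not. The strongest array was at 5.998 for *ALT2*, just outside that limit, and at 6.001 for *SLI15*, just inside it.

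Transcripts were measured on Affymetrix arrays in haploid cells of a strain that the labels name FM391. The groups were untreated wild type, wild type after 20 min in 0.4 mM H2O2, untreated sod1Δ and sod1Δ after the same treatment. All 4 groups were grown at 30 °C in synthetic medium lacking leucine to early log phase (OD600 about 0.4), and 50 ng of RNA per sample was amplified. The series' text asks which H2O2-responsive genes lost over 50% of their induction in sod1Δ. Each group had 1 array, so no value below has a replicate check, no p-value is given, and every difference compares single arrays. Levels and differences are in log2 signal, and genes were counted when the response difference reached 2-fold (1 on the log2 scale).

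Sod1 is the copper-zinc superoxide dismutase of the cytosol, which turns superoxide into hydrogen peroxide and oxygen. In wild type yeast, H2O2 activates Yap1 and Skn7, which raise genes of peroxide removal, and the general stress factors Msn2 and Msn4, which raise chaperone and reserve carbohydrate genes. Genes of ribosome production and of the cell cycle fall in the same response.

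The response difference is also the strain difference (sod1Δ minus wild type) after H2O2 minus the strain difference untreated. A response can therefore look smaller in sod1Δ because the gene started higher there, or because it ended lower. A difference was assigned to the untreated level when the strains differed at least 2-fold untreated and less than 2-fold after H2O2. It was assigned to the treated level in the opposite case. Genes past 2-fold in both conditions made a class of both levels, and genes past it in neither made a split class. Both strain differences are parts of the response difference by construction and use the same arrays.

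The *SOD1* signals matched the strain labels. *SOD1* had log2 signals of 14.21 and 14.31 on the wild type arrays, before and after H2O2, against 2.40 and 2.42 on the sod1Δ arrays. The background floor, the 95th percentile of probe sets for *Schizosaccharomyces pombe*, was 2.31. The transcript of the a pheromone gene *MFA1* lay between 11.60 and 12.30 on the 4 arrays, and *MF(ALPHA)1*, an alpha pheromone gene, between 2.18 and 2.22. Other genes of the alpha mating type lay above the floor. *MF(ALPHA)2* was between 7.397 and 8.88, *STE3* between 6.72 and 8.62, and *SAG1* between 8.11 and 8.83. *STE3* was higher in sod1Δ by 1.33 untreated and by 1.04 after H2O2. The 18 hybridization control probe sets above 6 had a median response of -0.44 on the wild type arrays and 0.11 on the sod1Δ arrays. Their response difference was above 0 in all 18, with a median of 0.54 and a range of 0.09 to 1.32, and 6 of them reached 1. These controls are not yeast transcripts, and their part in the positive response differences below was not tested. The authors' values were made with GCRMA, with settings not named, and the gene medians of the arrays lay between 9.24 and 9.30. A shift of the whole transcript pool cannot be read from such values. The arrays still differed: 4808 and 4815 of the kept genes lay above 6 on the untreated and treated wild type arrays, against 4738 and 4730 on the sod1Δ arrays.

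Most genes responded alike in both strains. The response difference had a median of -0.02 over the 5065 genes, quartiles of -0.28 and 0.21, and an SD of 0.53. It was below 0 for 2657 genes and above 0 for 2408. The responses themselves had an SD of 1.46 in wild type and 1.42 in sod1Δ. A response difference of at least 2-fold was found for 306 genes (6.04%). It was negative for 191 genes (3.77%) and positive for 115 genes (2.27%), so that 62.4% of the called genes were negative. With the arrays quantile-normalized over the yeast probe sets, 52.3% were negative. Just past and just short of the limits were *LTV1* at -1.003 against *HSP42* at -0.995, and *GPX2* at 1.004 against *BNS1* at 0.999. Dim genes were called more often. Of 228 genes with a mean level under 6, 30.3% were called, against 2.72% of the 1984 genes with a mean level over 10. Values computed with 32 added to the linear signal, which gives dim signals less weight, are therefore given below wherever they end a call or are over 1.5 times smaller.

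**Figure D1:**
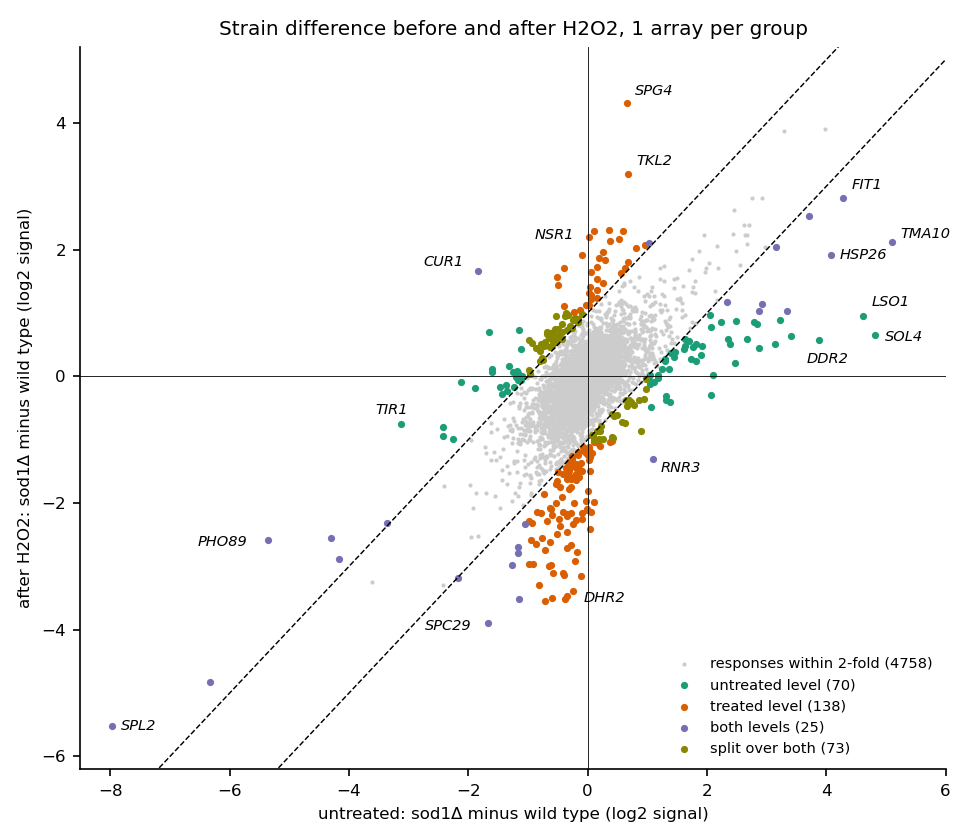
Strain difference (sod1Δ minus wild type, log2 signal) on the untreated arrays (x axis) and on the H2O2 arrays (y axis), 1 point per gene, with *SOD1* left out, coloured by the level to which the response difference was assigned; the dashed lines mark a response difference of 1 and -1. The 70 genes of the untreated level lie along the horizontal axis, with *SOL4* at the far right, and the 138 genes of the treated level along the vertical axis, most of them below it.

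The origin of the difference was the treated level for 138 genes and the untreated level for 70. A further 25 genes differed at least 2-fold in both conditions, with 17 negative (0.336%) and 8 positive (0.158%) response differences, and 73 were split. Negative differences from the untreated level, where sod1Δ started higher, were found for 46 genes (0.908% of the genes kept). Positive ones, where sod1Δ started lower, were found for 24 (0.474%). At the treated level, 103 genes (2.03%) ended lower in sod1Δ and 35 (0.691%) ended higher. Negative differences thus made up 74.6% of the treated-level genes, and 57.0% after quantile normalization.

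Genes were also counted by shape of response. Origin and shape use the same arrays and are not independent. A low untreated wild type value alone can give both the untreated level and a smaller induction. A low treated sod1Δ value alone can give both the treated level and a larger repression. Of the 191 negative differences, 87 were smaller inductions, which means genes induced at least 2-fold in wild type. Another 96 were larger repressions, which means genes that fell at least 2-fold in sod1Δ and were not induced at least 2-fold in wild type, and 8 passed 2-fold in neither strain. The untreated level accounted for 43 of the 87 smaller inductions and for 2 of the 96 larger repressions. The treated level accounted for 20 and 80 of them. Of the 115 positive differences, 46 were larger inductions, 63 were smaller repressions, 5 passed 2-fold in neither strain and 1 (*TIR1*) moved past 2-fold in opposite directions. The split class, with 25 negative genes (0.494%) and 48 positive ones (0.948%), held 20 of the larger inductions and 27 of the smaller repressions. Wild type repressed 824 genes at least 2-fold (16.3%), and 64 of these fell less by over 2-fold in sod1Δ. Sod1Δ repressed 812 (16.0%), and 96 of these fell less by over 2-fold in wild type.

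**Figure D2:**
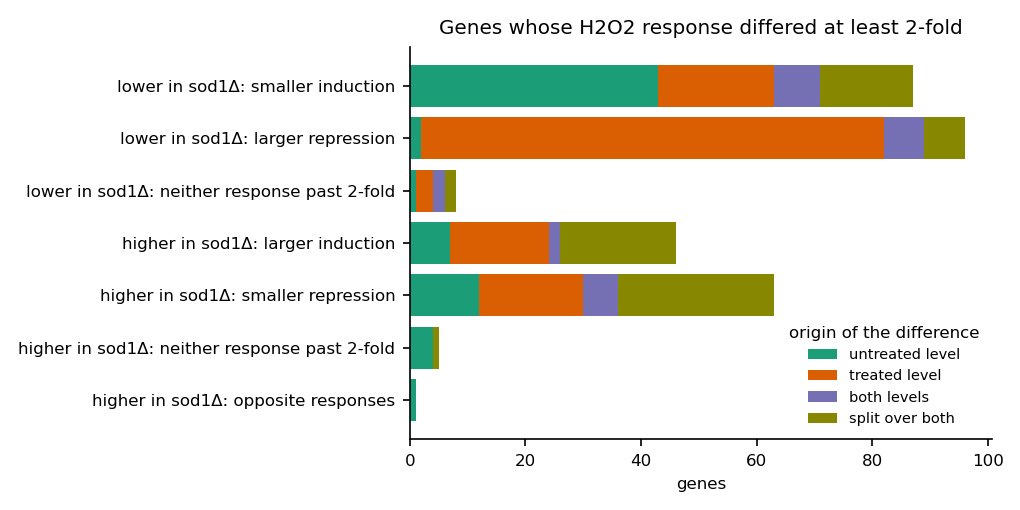
Number of genes (x axis) whose H2O2 response differed at least 2-fold between the strains, by shape of response (bars) and by the level the difference came from (colours). Smaller inductions came from the untreated level in 43 of 87 genes, and larger repressions from the treated level in 80 of 96. Level and shape use the same arrays and are not independent.

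The question in the series' text concerns the smaller inductions. Wild type induced 876 genes at least 2-fold (17.3%), and 87 of these (9.93%) lost over 50% of that fold in sod1Δ. With the strains exchanged, sod1Δ induced 756 genes (14.9%), and 47 of these (6.22%) were attenuated in wild type. Treated levels of the 87 lay on both sides of wild type, with a median treated strain difference of -0.08. In 42 of them sod1Δ was the higher strain after H2O2, and in 65 it was less than 2-fold below wild type or above it.

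In the 43 smaller inductions from the untreated level, the median level of wild type went from 7.86 to 12.03, and that of sod1Δ went from 9.85 to 12.16. The untreated gap had a median of 52.0% of the wild type response, with a range of 23.1% to 133%. After H2O2 the strains differed by a median of 0.44, with sod1Δ the higher in 36 of 43. All 43 rose in sod1Δ, 36 of them at least 2-fold. In the 20 smaller inductions from the treated level, the median level of wild type went from 4.93 to 7.34, and that of sod1Δ went from 4.54 to 5.56. Sod1Δ ended lower in all 20 by the rule, with a median treated difference of -1.52.

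The untreated-level genes with the largest negative differences were stress and detoxification genes. *SOL4*, encoding a 6-phosphogluconolactonase, was at 4.11 untreated and 11.50 after H2O2 in wild type, and at 8.92 and 12.16 in sod1Δ, a response difference of -4.16. *DDR2*, a multistress gene, was at 7.86 and 12.995 in wild type and at 11.75 and 13.56 in sod1Δ (-3.32). *TSA2*, encoding a cytosolic peroxiredoxin, was at 3.97 and 12.55 in wild type and at 7.38 and 13.18 in sod1Δ (-2.78). In each of the 3 genes the untreated wild type array was the low one and the treated arrays lay within 0.66 of each other. With 32 added, the differences were -2.74 for *SOL4* and -1.43 for *TSA2*.

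*HSP30*, whose product restrains the plasma membrane proton pump, was at 5.91 and 13.06 in wild type and at 9.06 and 13.57 in sod1Δ (-2.64). *RGI1*, a gene of respiratory growth, was at 6.81 and 13.11 in wild type and at 9.68 and 13.55 in sod1Δ (-2.43). *HBN1*, encoding a protein related to bacterial nitroreductases, was at 6.84 and 12.54 in wild type and at 10.07 and 13.44 in sod1Δ (-2.33). These genes had the same order of levels as *SOL4*, with untreated wild type lowest and treated sod1Δ highest. Across all 46 genes of this class the mean level had a median of 10.49, and 8 lay under 8.

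The general stress genes held the most such differences of the lists examined. Of 48 genes linked to Msn2 and Msn4, 17 had a negative difference, 14 from the untreated level and 3 from both levels, and 1, *TKL2*, a positive one. That is 35.4% negative, against 3.77% of all genes. In wild type 42 of the 48 were induced at least 2-fold, and the wild type response is subtracted in the difference. Of all genes induced at least 2-fold in wild type, 9.93% had a negative difference, and of the 325 induced at least 4-fold, 20.6%. The list's median response was 2.58 in wild type and 1.94 in sod1Δ. The untreated strain difference had a median of 1.25, with 27 of 48 genes at least 2-fold higher in sod1Δ, and the treated one a median of 0.53, with 11 of 48. Over all 5065 genes, 3.81% had an untreated level at least 2-fold higher in sod1Δ and 2.90% such a treated level. The list's median response difference was -0.53, against -0.02 for all genes and -0.46 for those induced at least 4-fold in wild type.

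Members of this list with smaller gaps had the same shape. *HSP12*, encoding a membrane-stabilizing stress protein, was at 11.52 and 13.35 in wild type and at 13.30 and 13.81 in sod1Δ (-1.31). *PGM2*, encoding the major phosphoglucomutase, was at 9.76 and 12.32 in wild type and at 11.49 and 12.59 in sod1Δ (-1.46). *TPS2*, encoding trehalose-6-phosphate phosphatase, was at 8.90 and 11.95 in wild type and at 10.07 and 11.98 in sod1Δ (-1.15). The list was not uniform. The cytosolic catalase gene *CTT1*, chosen after its values were seen, was at 3.78 and 12.46 in wild type and at 2.74 and 11.98 in sod1Δ, a difference of 0.55 with lower levels in sod1Δ in both conditions.

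The 3 general stress genes of the class of both levels were apart before and after H2O2. *TMA10*, encoding a ribosome-associated protein, was at 2.88 and 9.21 in wild type and at 7.98 and 11.34 in sod1Δ (-2.98). *HSP26*, encoding a small heat shock chaperone, was at 7.90 and 10.78 in wild type and at 11.98 and 12.70 in sod1Δ (-2.16). *PHM7* was at 4.76 and 10.81 in wild type and at 7.68 and 11.96 in sod1Δ (-1.78). For *HSP26*, untreated sod1Δ was above treated wild type. With 32 added, *TMA10* (-0.79) and *PHM7* (-0.88) no longer passed 2-fold.

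Transcripts of the regulators themselves were also examined. *MSN2* was at 8.05 and 8.99 in wild type and at 8.39 and 8.53 in sod1Δ (-0.81). *MSN4* was at 8.86 and 9.74 in wild type and at 9.77 and 10.19 in sod1Δ (-0.46). *YAP1* was at 9.46 and 11.11 in wild type and at 9.76 and 11.27 in sod1Δ (-0.15), and *SKN7* at 10.90 and 9.90 against 10.70 and 10.05 (0.34). None of these 4 transcripts reached a 2-fold response difference. Of 34 stress regulators only *MIG2*, encoding a glucose repressor, did so (1.17). A 2-fold response difference was found for 6.04% of all genes, so a list of 34 is too small for that count to set it apart. The arrays do not measure where these factors are in the cell or how active they are.

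Yap1-linked genes had more negative than positive differences. Of 37, 7 had a negative difference (18.9%, against 3.77% of all genes) and 3 a positive one (8.11%, against 2.27%). The list's median was -0.31, and 29 genes were below 0. In wild type 27 of the 37 were induced at least 2-fold. Of all genes induced at least 2-fold in wild type, 9.93% had a negative difference, and of those induced at least 4-fold, 20.6%. After quantile normalization the list's counts were 7 negative and 1 positive, and with 32 added 5 and 0. *FRM2*, another nitroreductase-like gene, was at 5.14 and 13.02 in wild type and at 6.96 and 13.25 in sod1Δ (-1.58). *YHK8*, encoding a presumed drug exporter, was at 5.79 and 13.18 in wild type and at 6.69 and 12.31 in sod1Δ (-1.77), so that sod1Δ started higher and ended lower. *AAD6*, an aryl-alcohol dehydrogenase gene chosen after its values were seen, went the other way, with wild type going from 2.90 to 11.31 and sod1Δ from 2.40 to 11.95 (1.14). With 32 added, *FRM2* (-0.98) and *AAD6* (0.71) no longer passed 2-fold.

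Peroxide removal genes had a median response difference of -0.08, against -0.02 for all genes. Of 35, 2 had a negative difference and 2 a positive one (5.71% each, against 3.77% and 2.27% of all genes). The negative pair were *TSA2* and *GTO3*, encoding an omega class glutathione transferase, which was at 7.53 and 11.54 in wild type and at 9.35 and 12.05 in sod1Δ (-1.30). The positive pair were split genes just past the limit. *CCP1*, encoding mitochondrial cytochrome c peroxidase, was at 11.41 and 13.89 in wild type and at 10.44 and 13.93 in sod1Δ (1.01). *GPX2*, encoding a glutathione peroxidase-like protein, was at 9.03 and 12.70 in wild type and at 8.28 and 12.96 in sod1Δ (1.004). Neither positive call was firm: *GPX2* lost it after quantile normalization (0.91), and both genes lost it when arrays were centred on their medians (0.98 and 0.97) and with 32 added.

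Iron genes linked to the factors Aft1 and Aft2 had small negative differences. Of 37, 36 had a response difference below 0, against 2657 of all 5065 genes, with a median of -0.52. In the list 4 passed 2-fold (10.8%, against 3.77% of all genes). The list's untreated strain difference had a median of 0.67 and the treated one of 0.08. *LSO1*, a small iron-regulated gene, was at 2.06 and 8.42 in wild type and at 6.68 and 9.37 in sod1Δ. Untreated wild type was under the floor, and with that array raised to the floor the response difference was -3.42 in place of -3.66. With 32 added it was -1.004.

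*HMX1*, encoding heme oxygenase, was at 7.60 and 12.09 in wild type and at 9.66 and 11.79 in sod1Δ (-2.36), which made it one of the untreated-level genes that ended lower in sod1Δ. *FRE3*, encoding a reductase for siderophore iron, was at 9.75 and 11.63 in wild type and at 11.05 and 11.86 in sod1Δ (-1.06). *FIT1*, encoding a cell wall mannoprotein that retains siderophores, was at 5.92 and 6.997 in wild type and at 10.21 and 9.82 in sod1Δ (-1.47). *FIT1* rose at least 2-fold in wild type only and was higher on both sod1Δ arrays than on either wild type array. The regulator transcript *AFT1* was at 9.47 and 9.54 in wild type and at 10.00 and 9.44 in sod1Δ (-0.63).

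**Figure D3:**
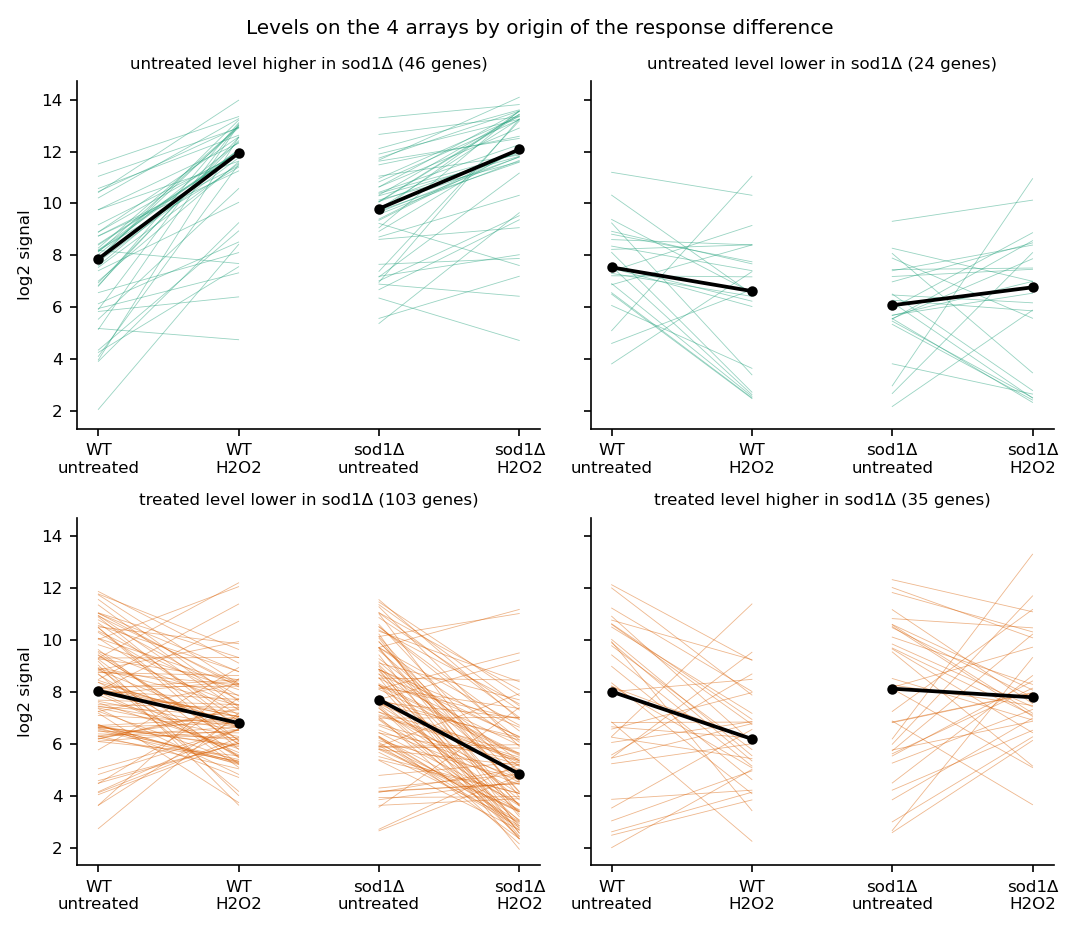
Log2 signal (y axis) on the 4 arrays (x axis) for genes whose response difference came from the untreated level (top) or the treated level (bottom); thin lines are genes and black points and lines are medians over the genes. In the top left panel the 46 genes start at a median of 7.86 in wild type and 9.80 in sod1Δ and meet after H2O2, and in the bottom left panel the 103 genes start alike and end at 6.796 and 4.83.

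At the treated level the largest group ended lower in sod1Δ. Its 103 genes had median levels of 8.04 untreated and 6.796 after H2O2 in wild type, and of 7.70 and 4.83 in sod1Δ. These were dim genes on the treated sod1Δ array, where 36 of 103 lay under 4 and 2 at the floor. The mean level was under 8 for 78 of the 103, against 8 of the 46 untreated-level genes with a negative difference. With 32 added to the linear signal, 42 genes were in this class.

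RNA helicases and other factors of ribosome assembly led it. *DHR2*, encoding a helicase for 18S rRNA processing, was at 10.47 untreated and 6.11 after H2O2 in wild type, and at 10.22 and 2.72 in sod1Δ, a response difference of -3.15. *DRS1*, encoding a helicase of the large ribosomal subunit, was at 11.35 and 7.41 in wild type and at 11.01 and 3.94 in sod1Δ (-3.13). *ROK1*, another helicase of the 18S pathway, was at 10.06 and 6.70 in wild type and at 9.68 and 3.19 in sod1Δ (-3.12). The untreated strain differences of the 3 genes were -0.25, -0.34 and -0.38, and the treated sod1Δ array was the lowest for each. With 32 added, the response differences were -1.15 for *DHR2*, -1.76 for *DRS1* and -1.35 for *ROK1*.

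*NOP13*, encoding a nucleolar protein of pre-ribosomes, was at 10.29 and 7.11 in wild type and at 9.70 and 3.60 in sod1Δ (-2.91). *NOP14*, encoding a component of the processome that makes the small subunit, was at 8.66 and 5.47 in wild type and at 8.26 and 2.33 in sod1Δ (-2.74). *TSR1*, needed for late small subunit assembly, was at 9.63 and 5.48 in wild type and at 9.42 and 2.56 in sod1Δ (-2.72). All 3 fell in wild type and fell further in sod1Δ on the deposited scale, where *NOP14* and *TSR1* ended next to the floor of 2.31. With 32 added, *NOP13* was at -1.37, and *NOP14* (-0.68) and *TSR1* (-0.82) no longer passed 2-fold.

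The list of 131 ribosome biogenesis genes did not move one way. It held 24 negative differences, 23 of them from the treated level, and 11 positive ones, with a median of -0.19. These are 18.3% and 8.40% of the list, against 3.77% and 2.27% of all genes. The wild type response is subtracted in the difference. Of all genes that fell at least 2-fold in wild type, 7.77% had a positive difference. Of the 321 that fell at least 4-fold, members of this list among them, 11.8% had a negative difference and 14.02% a positive one. After quantile normalization the list's counts were 17 and 17 and its median was -0.01. With 32 added the list's counts were 9 and 5 and its median was -0.03. The median response was -3.21 in wild type and -3.61 in sod1Δ, and 125 of the 131 fell at least 2-fold in wild type. *NSR1*, encoding a nucleolin-like protein, was at 12.002 and 7.88 in wild type and at 12.02 and 10.08 in sod1Δ (2.19). *RRS1*, needed for the large subunit, was at 9.93 and 3.42 in wild type and at 9.54 and 5.14 in sod1Δ (2.11). These genes fell less in sod1Δ, opposite to *DHR2*. With 32 added, *RRS1* was at 1.03.

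Gene length divided the list, a comparison chosen after the values were seen. Lengths were the start-to-end spans of the RefSeq table, and the median over all genes kept was 1248 bp. Among the 88 ribosome biogenesis genes longer than that, 21 had a negative and 2 a positive difference, with a median of -0.38. These are 23.9% and 2.27%, against 4.23% and 2.01% of all longer genes. Among the 43 shorter list members, 3 had a negative and 9 a positive difference, with a median of 0.31. These are 6.98% and 20.9%, against 3.32% and 2.53% of all shorter genes. With 32 added, the longer genes had 8 negative and 0 positive differences and a median of -0.25, and the shorter ones 1 and 5 and a median of 0.29. The negative genes had a median length of 2175 bp and the positive ones of 870 bp. Spearman's correlation of length with the response difference was -0.41 over the 131 genes, which share the same 4 arrays and are not independent replicates.

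The division was smaller outside that list. With its members left out, a step added after the values were seen, 218 genes fell at least 4-fold in wild type. The 98 longer ones held 12 negative and 13 positive differences, with a median of -0.09. These are 12.2% and 13.3%, against 4.23% and 2.01% of all longer genes. The 120 shorter ones held 3 and 21, with a median of 0.40. After quantile normalization the counts were 9 and 17 for the longer genes, with a median of 0.25, and 2 and 32 for the shorter ones, with a median of 0.66. With 32 added, the counts were 4 and 6 for the longer genes, with a median of 0.07, and 0 and 11 for the shorter ones, with a median of 0.41. Over all 5065 genes Spearman's correlation with length was -0.09. The 103 genes lower at the treated level had a median length of 1773 bp, and 69 of them were longer than the median.

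Array probes for the ends of 7 control genes give a measure of RNA that is incomplete at its 5′ end. The signal at the 3′ end minus that at the 5′ end had a median over the 7 genes of 0.86 and 0.99 on the untreated and treated wild type arrays and of 1.00 and 0.78 on the sod1Δ arrays. For *MED17*, a subunit of Mediator whose probe sets gave the largest values, it was 1.53 and 1.74 in wild type and 2.82 and 3.35 in sod1Δ. The other control genes differed less between the strains, in either direction. Whether transcript ends had a part in the length pattern was not tested.

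**Figure D4:**
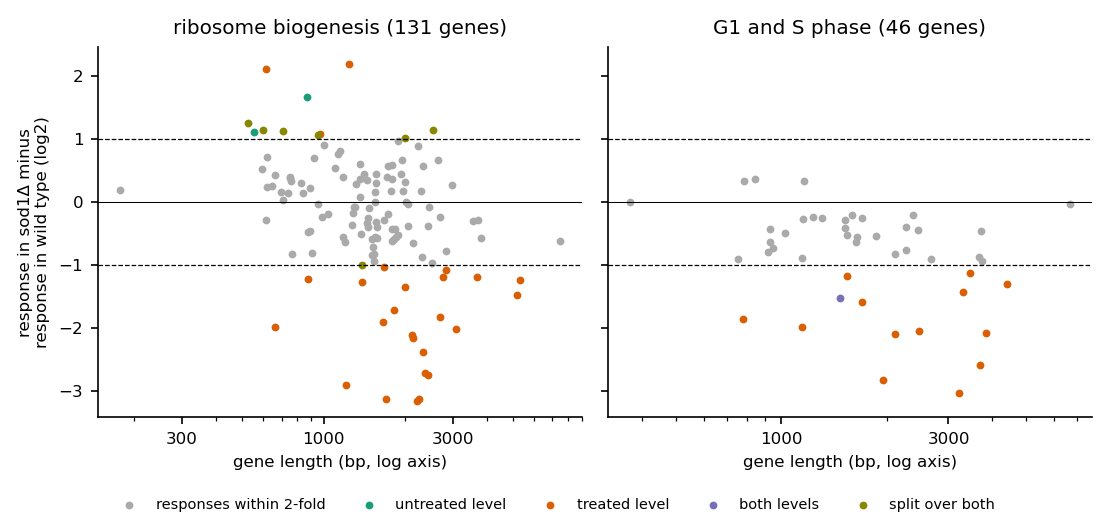
Response difference (y axis, log2) against gene length (x axis, bp, log scale) for 131 ribosome biogenesis genes (left) and 46 genes of G1 and S phase (right), coloured by the level the difference came from; dashed lines mark 1 and -1. Negative treated-level genes in the left panel lie mostly above 1248 bp, and in the right panel 42 of 46 genes are below 0.

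Many genes of G1 and S phase were lower in sod1Δ after H2O2. These are targets of the factors SBF and MBF, which switch on DNA replication genes before S phase. Of 46, 14 had a negative difference (30.4%, against 3.77% of all genes) and none a positive one. The treated level accounted for 13 and both levels for 1. The difference was below 0 in 42 of the 46, against 2657 of all 5065 genes. The list's median response was -0.68 in wild type and -1.40 in sod1Δ. The untreated strain difference had a median of -0.28, with 2 genes at least 2-fold lower, and the treated one of -1.03, with 24 genes. Over all genes kept, 2.74% had an untreated level at least 2-fold lower in sod1Δ and 5.78% such a treated level. The list's median response difference was -0.68. It was -0.63 after quantile normalization and -0.47 with 32 added, where 11 negative calls were left.

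*RTT107*, encoding a scaffold protein of DNA repair in S phase, was at 7.58 and 5.80 in wild type and at 7.46 and 2.66 in sod1Δ (-3.03). *CDC45*, encoding a part of the replicative helicase, was at 7.63 and 6.61 in wild type and at 6.92 and 3.07 in sod1Δ (-2.83). *SMC3*, encoding a cohesin subunit, was at 8.44 and 6.61 in wild type and at 8.26 and 3.84 in sod1Δ (-2.59). *POL12*, encoding a subunit of DNA polymerase alpha, was at 8.74 and 8.63 in wild type and at 8.85 and 6.64 in sod1Δ (-2.10). The *POL12* response was -0.12 in wild type and -2.22 in sod1Δ. With 32 added, the response differences were -1.10 for *RTT107*, -1.09 for *CDC45* and -1.32 for *SMC3*. Length also varied with the difference here, with a Spearman correlation of -0.35 over the 46 genes and with 4 genes above 0.

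The spindle and centromere genes *CSE4* and *SPC29* were apart in both conditions. *CSE4*, encoding the centromeric histone H3, was at 6.98 and 6.02 in wild type and at 5.83 and 2.51 in sod1Δ (-2.35). It was the one called gene of 10 histone genes, whose median was 0.50. *SPC29*, encoding a spindle pole body component, was at 6.14 and 6.58 in wild type and at 4.46 and 2.68 in sod1Δ (-2.22). The treated sod1Δ signals of both lay near the floor of 2.31, and with 32 added *CSE4* (-0.53) and *SPC29* (-0.81) no longer passed 2-fold. Genes of G2, mitosis and early G1 had no negative call in 36 and 2 positive ones (5.56%, against 2.27% of all genes), *KIN3* and *CHS2*, with a median of 0.16. With 32 added, neither passed 2-fold (0.91 and 0.93).

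The DNA damage response list held 8 negative differences and no positive one in 44 genes (18.2% negative, against 3.77% of all genes), with a median of -0.25. With 32 added, 4 negative differences were left. *OGG1*, encoding the glycosylase that removes 8-oxoguanine, was at 7.35 and 4.82 in wild type and at 7.39 and 2.42 in sod1Δ (-2.45). *PLM2*, encoding a forkhead-associated factor, was at 4.47 and 7.75 in wild type and at 4.13 and 5.04 in sod1Δ (-2.37), a smaller induction from the treated level. *RNR3*, encoding the damage-inducible large subunit of ribonucleotide reductase, was at 3.37 and 7.11 in wild type and at 4.46 and 5.80 in sod1Δ (-2.40). The *RNR3* arrays crossed over, with sod1Δ at least 2-fold higher untreated and at least 2-fold lower after H2O2. The treated sod1Δ signal of *OGG1* lay near the floor of 2.31, and with 32 added *OGG1* (-0.73) no longer passed 2-fold and *RNR3* was at -1.30.

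The checkpoint kinase genes had the same sign. *RAD53* was at 6.30 and 7.05 in wild type and at 5.38 and 4.09 in sod1Δ (-2.05). *DUN1*, which encodes the kinase that acts after Rad53 on ribonucleotide reductase, was at 8.84 and 9.94 in wild type and at 8.53 and 8.45 in sod1Δ (-1.17). *DUN1* rose past 2-fold in wild type alone, and *RAD53* fell past 2-fold in sod1Δ alone. *HUG1*, encoding a small inhibitor of ribonucleotide reductase and chosen after its values were seen, was at 4.20 and 4.18 in wild type and at 7.36 and 6.23 in sod1Δ (-1.12). With 32 added, *RAD53* was at -1.16 and *HUG1* (-0.87) no longer passed 2-fold.

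Among the 35 treated-level genes that ended higher in sod1Δ, *SPG4* and *TKL2* had the largest values. *SPG4*, a gene needed for survival in stationary phase, was at 2.00 and 5.01 in wild type and at 2.66 and 9.32 in sod1Δ (3.65), and at 3.97 with the untreated wild type array raised to the floor. *TKL2*, encoding the minor transketolase, was at 6.56 and 7.97 in wild type and at 7.24 and 11.17 in sod1Δ (2.52). *CAT8*, encoding an activator of gluconeogenic genes, was at 3.86 and 4.21 in wild type and at 4.21 and 6.52 in sod1Δ (1.95). In all 3 the treated sod1Δ array stood above the other 3 arrays. With 32 added, *CAT8* was at 1.17.

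Other genes of this class had less in common. *YDL218W*, an uncharacterised gene, was at 6.28 and 11.39 in wild type and at 6.19 and 13.30 in sod1Δ (2.01). *MCH2*, encoding a protein related to monocarboxylate transporters, was at 2.47 and 3.83 in wild type and at 2.58 and 6.12 in sod1Δ (2.19). *CTF19*, encoding a kinetochore subunit, was at 6.05 and 6.85 in wild type and at 5.53 and 8.42 in sod1Δ (2.08). With 32 added, *MCH2* was at 1.12. Of the 37 gluconeogenic and post-diauxic genes, 5 had a positive difference (13.5%, against 2.27% of all genes). A negative one was found for 2, *SIP4* and *ALD4* (5.41%, against 3.77%). The list's median of 0.08 was near that of all genes. With 32 added, 2 positive and 1 negative differences were left, and *SIP4* (-0.94) no longer passed 2-fold. The hybridization controls moved the same way as these positive genes by a median of 0.54.

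Heat shock and chaperone genes had 3 negative and 3 positive differences in 43 (6.98% each, against 3.77% and 2.27% of all genes), with a median of 0.30, and 31 were above 0. The positive genes were *CUR1*, *AHA1* and *HSP82*. *CUR1*, encoding a factor that sorts misfolded proteins to the nucleus, was at 5.95 and 7.09 in wild type and at 4.10 and 8.76 in sod1Δ (3.52). *AHA1*, encoding an activator of Hsp90, was at 11.55 and 10.48 in wild type and at 10.87 and 11.14 in sod1Δ (1.35). *HSP82*, encoding the inducible Hsp90, was at 12.14 and 12.25 in wild type and at 11.59 and 12.87 in sod1Δ (1.17). In all 3 sod1Δ was the lower strain untreated and the higher one after H2O2.

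Several phosphate genes that were low in sod1Δ fell in wild type and fell less or rose in sod1Δ. Of 24 genes linked to Pho4, the factor active when phosphate is short, 7 had a positive difference and 1 a negative one, with a median of 0.33. These are 29.2% and 4.17% of the list, against 2.27% and 3.77% of all genes. The wild type response is subtracted in the difference. Of all genes that fell at least 2-fold in wild type, 7.77% had a positive difference. In this list 9 genes were at least 2-fold lower in untreated sod1Δ and 6 after H2O2, and 10 fell at least 2-fold in wild type. Over all genes kept, 2.74% had such an untreated level and 5.78% such a treated level, and 16.3% fell at least 2-fold in wild type. Of the 7 positive genes, 5 were lower by at least 2-fold in both conditions, and 1 was *CTF19*, which ended higher in sod1Δ. *SPL2*, a regulator of low-affinity phosphate uptake, was at 10.41 and 8.47 in wild type and at 2.45 and 2.96 in sod1Δ (2.45). *PHO89*, encoding a sodium-phosphate transporter, was at 8.56 and 6.18 in wild type and at 3.21 and 3.60 in sod1Δ (2.77). *PHO5*, encoding the main secreted acid phosphatase, was at 12.23 and 11.09 in wild type and at 7.93 and 8.55 in sod1Δ (1.76).

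For *SPL2* and *PHO89* the sod1Δ arrays were near the floor of 2.31, and both genes rose in sod1Δ, by 0.51 and 0.39. *PHO5*, further above the floor, rose there by 0.62. Whether the floor had a part in these differences was not tested. *VTC3*, encoding a subunit of the vacuolar polyphosphate polymerase, was at 11.34 and 9.40 in wild type and at 7.98 and 7.10 in sod1Δ (1.05). *PHO11*, an acid phosphatase gene whose probe set can share transcripts with a close copy, was at 11.88 and 9.46 in wild type and at 5.55 and 4.63 in sod1Δ (1.503). Both still fell in sod1Δ, well above the floor, and by less than in wild type. The transcripts of *PHO4* (-0.12) and of the kinase inhibitor gene *PHO81* (0.72) did not pass 2-fold.

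By the rule, 24 genes started lower in sod1Δ and lay within 2-fold of wild type after H2O2. They were mostly dim, and 21 had a mean level under 8. *TIR1*, encoding a cell wall mannoprotein of low oxygen and cold, was at 8.81 and 7.75 in wild type and at 5.68 and 6.995 in sod1Δ (2.37). *IRC15*, encoding a microtubule-associated protein, was at 7.21 and 7.17 in wild type and at 5.56 and 7.87 in sod1Δ (2.35). *YLR460C*, an uncharacterised gene, was at 5.10 and 11.05 in wild type and at 2.97 and 10.95 in sod1Δ (2.03). *REX4*, encoding a presumed RNA exonuclease, was at 8.11 and 2.73 in wild type and at 6.51 and 2.79 in sod1Δ (1.67). *REX4* ended close to the floor in both strains, so its smaller fall in sod1Δ came with a lower start and a like end. With 32 added, *YLR460C* (0.64) no longer passed 2-fold.

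**Figure D5:**
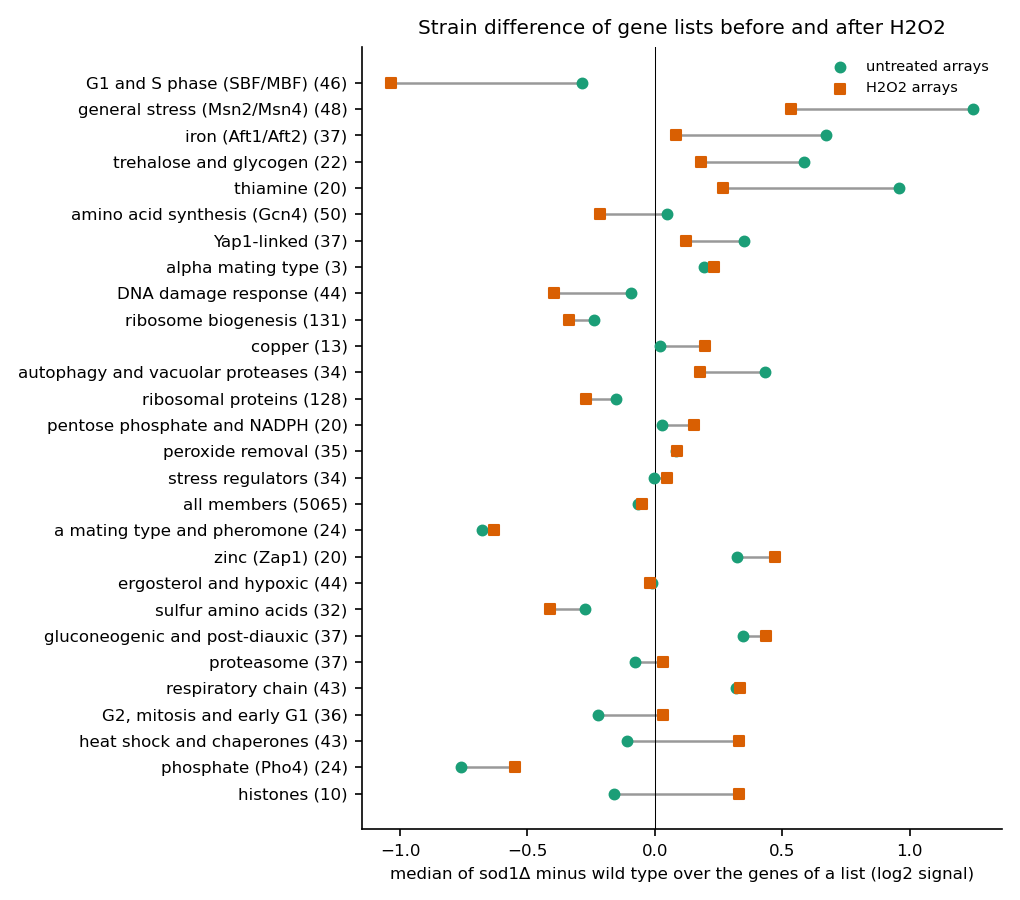
Median strain difference (x axis, sod1Δ minus wild type in log2 signal) over the genes of each list (y axis, number of genes in brackets) on the untreated arrays (circles) and on the H2O2 arrays (squares), ordered by the median response difference. General stress genes are apart on the untreated arrays (1.25 against 0.53), and G1 and S phase genes on the H2O2 arrays (-0.28 against -1.03).

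Other lists held few 2-fold response differences, which were found for 6.04% of all genes. Lists of 34 to 43 genes are too small for such counts to set them apart from all genes. None of 128 ribosomal protein genes had a 2-fold response difference, with a range of -0.61 to 0.58 and a median of -0.13. None of 37 proteasome genes had one, with a range of -0.32 to 0.48. Of 43 respiratory chain genes 1 did, *SDH4*, encoding a membrane subunit of succinate dehydrogenase (1.30). Of 34 autophagy and vacuolar protease genes 1 did, *ATG8*, whose product is anchored in autophagosome membranes (-1.03, and -0.97 with 32 added). Without replicates these small differences cannot be told apart from the spread between arrays.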

How the data were processed

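RNA of 4 cultures was measured on 1 array each, amplified from 50 ng per the labels' protocols. The log2 signals per probe set were used as the authors deposited them, made with GCRMA per the submitters' processing notes. No source used here names the version or settings. Of 10928 probe sets, 5498 named 1 *S. cerevisiae* gene and were averaged to 5449 genes. The response difference and its assignment to the untreated or treated level were computed with Python 3.11.15, pandas 2.3.3 and numpy 2.4.6, and drawn with matplotlib 3.10.9. The steps were tested on simulated data. Arrays give no counting depth, and with 1 array per group no test across arrays was made.

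For 37 genes with 2 probe sets above 6, the SD of the response difference per probe set was 0.28, and 1 pair differed by 1 or more. Of the 306 called genes, 8 have probe sets that can share transcripts with other genes. Genes were described in 27 lists, which held 122 of the 306. The members and lists were chosen with earlier results of these data known. The naming rule took the 12 largest response differences in each direction, the 8 largest of each class and direction, the 4 largest of each list, every called gene of a list with up to 6 of them, and *SOD1*, stress regulators, checkpoint kinases and markers. Alternatives changed the normalization, the filter on low signals, the probe set rule, the threshold and the weight of dim signals. Planned counts of promoter motifs were not made, since no promoter sequences were used here.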

Additional observations from a re-analysis of the deposited data

Results flagged for a closer look

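*TIR1*, the mannoprotein gene, was the single called gene that moved past 2-fold in opposite directions in the strains, with responses of -1.06 in wild type and 1.31 in sod1Δ and a response difference of 2.37. With 1 array per group that difference was not tested.

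Outside the named genes, 3470 probe sets had no gene name here, and 195 of them lay above 6 on at least 1 array. Of these, 15 had a response difference of at least 2-fold, 10 negative and 5 positive.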

How the results depend on the processing

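No paired analysis was possible because each group had 1 array. Negative differences outnumbered positive ones in all, at the untreated level and at the treated level under every alternative run, but the counts depended on the treatment of dim genes. In the order negative differences, positive differences, lower at the treated level, higher there, higher in sod1Δ at the untreated level and lower there, the counts as reported were 191, 115, 103, 35, 46 and 24. With 32 added to the linear signal they were 97, 64, 42, 24, 34 and 15. With at least 1 array above 8 they were 128, 76, 57, 26, 42 and 14, and with a mean level of at least 8 they were 86, 38, 25, 15, 38 and 3. At a threshold of 1.5 they were 80, 33, 46, 18, 22 and 9. The 87 attenuated genes became 60, 69, 58 and 32 in these settings. A mean level of at least 8 thus kept 38 of the 46 genes higher at the untreated level and 25 of the 103 lower at the treated level. Quantile normalization raised the 35 genes higher at the treated level to 58 and gave 169 negative and 154 positive differences, of which 157 and 112 were shared with those reported; the cause was not tested. Centring on the array median, the brightest probe set per gene, the floor as the only filter and leaving out genes at the floor kept all 7 counts within 1.5 times. Assigning a level when 1 strain difference was at least 2 times the other gave 119 and 49 treated-level and 56 and 30 untreated-level genes. Of the named genes' differences, 23 no longer passed 2-fold with 32 added. The number of arrays limits the precision.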

Other observations

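Amino acid synthesis genes linked to Gcn4, the factor active when amino acids are short, had small negative response differences. Of 50, 45 were below 0, against 2657 of all 5065 genes, with a median of -0.31. Just 2 passed 2-fold (4.00%), near the 3.77% of all genes. *CHA1*, encoding a serine and threonine deaminase, was at 8.997 and 9.81 in wild type and at 7.73 and 6.84 in sod1Δ (-1.70). *ARG3*, encoding ornithine carbamoyltransferase, was at 9.51 and 11.15 in wild type and at 10.24 and 10.75 in sod1Δ (-1.13). The list's median response was 0.33 in wild type and -0.02 in sod1Δ.

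Thiamine genes were higher in untreated sod1Δ by a median of 0.96 over 20 genes, and by 0.27 after H2O2. *THI6*, encoding a bifunctional enzyme of thiamine synthesis, was at 10.39 and 10.53 in wild type and at 11.73 and 10.90 in sod1Δ (-0.97), just short of 2-fold. The called gene was *THI13* (-1.17), whose probe set can share transcripts with close copies. Sulfur amino acid genes had no 2-fold response difference in 32, and 2 positive ones after quantile normalization, which also gave 3 negative thiamine genes. Zinc genes had none in 20. Of the 306 called genes, 184 were in none of the 27 lists.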
